A study of Mus musculus with 33 samples.

Results

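The genes of MHC class II presentation were followed through 3 immune cell populations sorted from pancreatic tumours. The set holds 10 genes, chosen by name from the 53735 gene names of each deposited table: the class II chain genes H2-Aa, H2-Ab1 and H2-Eb1, the peptide-loading genes H2-DMa, H2-DMb1, H2-DMb2 and H2-Oa, the invariant chain gene Cd74, the protease gene Ctss and the transactivator gene Ciita. All 10 were found in all 9 tables, and all 10 had an adjusted p in each of them, so none was lost to the authors' filter on low levels.

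Class II molecules are pairs of an alpha and a beta chain that present peptides from endosomes to CD4 T cells. The invariant chain fills the groove of a newly made pair and guides it to the endosome, where cathepsin S, the product of Ctss, trims it. H2-DM then exchanges the remaining fragment for other peptides, and H2-O restrains H2-DM. Ciita, which interferon gamma induces in macrophages, does not bind DNA itself but acts through factors bound to the X and Y boxes of class II promoters. Dendritic cells, B cells and activated macrophages are the usual class II-bearing cells, while mouse T cells make little or none.

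The mice were of strain C57BL/6 and carried KCKO cells, a mouse pancreatic ductal adenocarcinoma line, in the tail of the pancreas beside titanium markers used to aim the beam. Stereotactic body radiotherapy (SBRT) delivered 6 Gy in each of 4 fractions from day 6 to day 9 after implantation, and microspheres holding 0.5 µg of interleukin 12 (IL-12) were injected into the tumour on day 10. Inflammatory monocytes (IM) were sorted as CD45+CD11b+Ly6C+Ly6G-, macrophages of the tumour (TAM) as CD45+CD11b+Ly6G-F4/80+ cells with moderate Ly6C, and T cells (CD8) as CD45+CD8+. The 4 groups of a population were unirradiated, SBRT, IL-12, and SBRT plus IL-12, hereafter the combination. For IM and CD8 there were 3 libraries in each group. For TAM there were 2, except for 3 after IL-12. All groups carried the tumour and the markers, and empty microspheres are named as a control without saying which groups received them. The model is 1 tumour line in 1 mouse strain, and the day of harvest is not given in the labels.

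Each of the authors' deposited tables sets 1 treatment against the unirradiated libraries of the same population by DESeq2's Wald test. They hold the mean normalised level over the population, the log2 fold change and the adjusted p, and no value for a single library, so depth and the number of libraries behind each direction are unknown. The p-values measure the spread between libraries, which the labels do not tie to separate mice. The 3 comparisons of a population share their unirradiated libraries. A gene is said to have risen or fallen where the deposited adjusted p was below 0.05. The sign ± marks the implied standard error, the deposited fold change divided by its Wald statistic. The deposited fold changes were shrunken towards 0, so this value can be too small for genes at low level such as H2-Oa. Intervals and tests of differences rest on it, and group levels computed from the fold changes may lie too close together. In these sorted bulk samples, fewer cells of a type and less RNA per cell cannot be told apart.

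The gene positions are GENCODE M21 spans on build GRCm38. H2-Aa lies at chr17:34282744-34287823, H2-Ab1 at chr17:34257689-34269419 and H2-Eb1 at chr17:34305867-34316674. The loading genes H2-Oa (chr17:34092340-34095234), H2-DMa (chr17:34119541-34139101), H2-DMb2 (chr17:34143307-34151555) and H2-DMb1 (chr17:34153072-34160230) lie in the same region of chromosome 17. Ctss is at chr3:95526786-95556403 and Ciita at chr16:10480059-10528418. H2-DMb1 and H2-DMb2 are near copies: 27.2% of the 50-base stretches of the H2-DMb1 transcript are also in that of H2-DMb2, so reads could be split between them. Exons of H2-DMa overlap those of Brd2 on the opposite strand, those of H2-Oa overlap BC051537 and those of Ciita overlap Dexi in the same way, and the library kit does not mark strand. Cd74 contains Mir5107 on its own strand.

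The promoter layout of the class II genes is shown here as sequence, and its relation to the increases in IM was not tested. RefSeq promoter windows (build GRCm38.p6, searched over the 250 bases before the gene start) were matched for 7 of the 10 genes, and not for H2-Ab1, Cd74 or Ciita. In H2-Aa, H2-Eb1, H2-Oa and H2-DMb1 the window held GNAAC, a part of the X box, followed after 15 to 45 bases by GATTGG, the reverse complement of CCAATC and the core of the Y box. The printed strand is that of the gene, and capitals mark the pair or, in H2-DMb2, GATTGG alone.
H2-Aa (chr17:34287859-34287912, minus strand): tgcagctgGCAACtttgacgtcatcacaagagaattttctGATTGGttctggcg
H2-Eb1 (chr17:34305768-34305820, plus strand): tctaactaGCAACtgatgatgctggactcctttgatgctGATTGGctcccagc
H2-Oa (chr17:34092295-34092348, plus strand): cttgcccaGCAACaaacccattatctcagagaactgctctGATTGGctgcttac
H2-DMb2 (chr17:34145118-34145171, plus strand): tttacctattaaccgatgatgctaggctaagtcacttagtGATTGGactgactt
GATTGG began 49 bases before the RefSeq gene start in H2-Aa, 60 in H2-Eb1, 44 in H2-Oa and 62 in H2-DMb1, with 26 or 27 bases between both elements. Over 32851 windows of the same length, 0.761% held the pair on the gene's strand, 1.46% on either strand, and 14.6% held GATTGG on either strand. The windows of H2-DMa and Ctss did not hold the pair, and that of H2-Ob, a gene outside the set, did. The letters searched were settled after these promoters had been looked at, and a match is a description of the sequence only. RefSeq and GENCODE place some gene starts differently. The GENCODE M21 model of H2-DMb2 starts upstream of the RefSeq start, so the printed H2-DMb2 stretch lies before the RefSeq start but in the first intron of the GENCODE gene. The pair in H2-DMb1 lies inside its first GENCODE exon, so its sequence is not printed and its match is uncertain as a promoter element. The last bases printed for H2-Oa also overlap its first GENCODE exon.

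**Figure D1:**
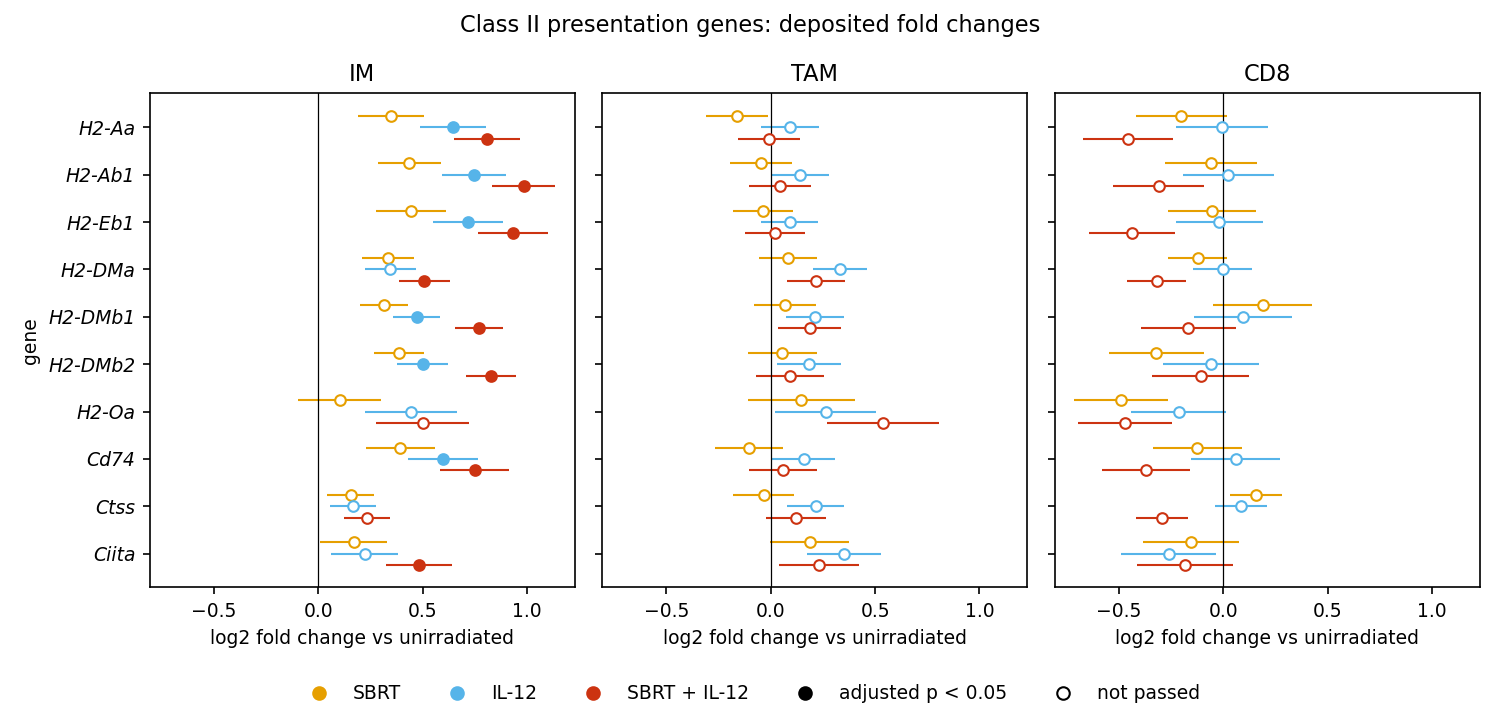
Log2 fold change (x axis) of the 10 class II presentation genes (y axis) after each treatment against the unirradiated group, in IM, TAM and CD8; points are deposited values, bars are ± 1 standard error and filled points had an adjusted p below 0.05. In IM all points lie right of 0, and for most genes further right from SBRT to IL-12 to the combination, whereas in TAM and CD8 every point is open.

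In inflammatory monocytes, class II presentation genes rose after IL-12 and after the combination. Of the 10 genes, 6 rose after IL-12 and 8 after the combination, and 0 fell in either comparison. Over all genes tested, 1.91% rose after IL-12 and 3.69% after the combination. After SBRT alone 0 of 10 passed DESeq2's adjusted threshold, against 0.379% of all genes that rose, although 7 had an unadjusted p below 0.05. The median log2 fold change of the 10 genes was 0.34 after SBRT, 0.49 after IL-12 and 0.76 after the combination, and that of all genes tested was -0.02 in each. All 10 values were above 0 in all 3 comparisons.

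The beta chain gene H2-Ab1 had the largest fold change of the set in IM after IL-12 and after the combination. Its level was 3262 CPM (mean normalised counts scaled to sum to 1000000 over all genes of a population) in the unirradiated group, 4412 after SBRT, 5471 after IL-12 and 6454 after the combination. These group levels were computed from the population mean and the deposited fold changes. In the authors' deposited table the increase was 0.75 ± 0.15 (log2) after IL-12 (adjusted p = 0.00011) and 0.98 ± 0.15 after the combination (adjusted p = 1.5e-08). The level of the combination group was thus 1.98-fold that of the unirradiated group. After SBRT alone the value was 0.44 ± 0.15 (adjusted p = 0.26).

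The other 2 chain genes followed the same order of groups. H2-Eb1, a beta chain gene, stood at 1421, 1932, 2338 and 2715 CPM in the unirradiated, SBRT, IL-12 and combination groups. It rose by 0.72 ± 0.17 after IL-12 (adjusted p = 0.0012) and 0.93 ± 0.17 after the combination (adjusted p = 2.1e-06). H2-Aa, the alpha chain gene, stood at 1655, 2107, 2592 and 2900 CPM in the same order. It rose by 0.65 ± 0.16 after IL-12 (adjusted p = 0.0029) and 0.81 ± 0.16 after the combination (adjusted p = 2.5e-05). After SBRT the log2 fold changes were 0.44 for H2-Eb1 (adjusted p = 0.34) and 0.35 for H2-Aa (adjusted p = 0.57). The summed level of the 3 chain genes in IM was 6338 CPM in unirradiated tumours and 12069 after the combination.

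Cd74 was the most abundant gene of the set in every population. In IM it stood at 6993 CPM in the unirradiated group, 9189 after SBRT, 10582 after IL-12 and 11751 after the combination. It rose by 0.60 ± 0.17 after IL-12 (adjusted p = 0.015) and 0.75 ± 0.17 after the combination (adjusted p = 0.00034), and its value after SBRT was 0.39 (adjusted p = 0.48).

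Of the genes for peptide loading, those of the H2-DM beta chain had the smallest adjusted p of the set after the combination. H2-DMb2 stood at 86.3, 113, 122 and 153 CPM in the 4 groups of IM. It rose by 0.50 ± 0.12 after IL-12 (adjusted p = 0.0024) and 0.83 ± 0.12 after the combination (adjusted p = 1.3e-09). H2-DMb1 stood at 422, 525, 585 and 719 CPM and rose by 0.47 ± 0.11 (adjusted p = 0.0024) and 0.77 ± 0.11 (adjusted p = 2.7e-09). The alpha chain gene of H2-DM moved less: H2-DMa rose by 0.51 ± 0.12 after the combination (adjusted p = 0.0014), and its 0.35 ± 0.12 after IL-12 did not pass (adjusted p = 0.11). H2-Oa, the alpha chain gene of H2-O, was at 2.08 to 2.94 CPM in the IM groups, and none of its 3 comparisons passed (0.50 ± 0.22 after the combination, adjusted p = 0.20). Its level was the lowest of the set in IM, with H2-DMb2 next.

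The genes of the transactivator and the protease had the lowest fold changes in IM after IL-12 and after the combination. After SBRT only H2-Oa (0.10) was lower. Ciita stood at 211, 237, 246 and 295 CPM in the 4 groups of IM. It rose after the combination (0.48 ± 0.16, adjusted p = 0.040), and this call was lost with adjustment over every gene that had a p (adjusted p = 0.070) and with an empirical null (adjusted p = 0.26). Its values after SBRT (0.17) and IL-12 (0.22, adjusted p = 0.68) did not pass. Ctss did not pass in any IM comparison, with values of 0.15, 0.17 and 0.24 ± 0.11 (adjusted p = 0.24 after the combination).

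Within IM, the step from 1 treatment to both was not separable for any of the 10 genes by the test of the difference. The combination minus SBRT difference was above 0 in 10 of 10 genes, with a median of 0.41, but 0 passed (5 with an unadjusted p below 0.05) where 0.204% of all genes differed. For H2-Ab1 this difference was 0.55 (95% confidence interval 0.13 to 0.97), and for H2-DMb1 it was 0.45 (0.14 to 0.77, adjusted p = 0.73). The count depended on the variance used. With the variance of the shared unirradiated libraries removed, 3 genes differed (H2-Ab1, H2-DMb1 and H2-DMb2), and with an empirical null 5 did. The combination minus IL-12 difference passed in 0 of 10 genes (0 unadjusted) and in 0% of all genes, and an empirical null gave 2, H2-DMb1 and H2-DMb2. H2-DMb2 had the largest of these differences, 0.33 (-0.01 to 0.66), and that of H2-Ab1 was 0.24 (-0.18 to 0.66). The interaction, combination minus both single effects, passed in 0 of 10 genes (0 unadjusted) and in 0.00305% of all genes, with an interval of -0.72 to 0.32 for H2-Ab1.

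**Figure D2:**
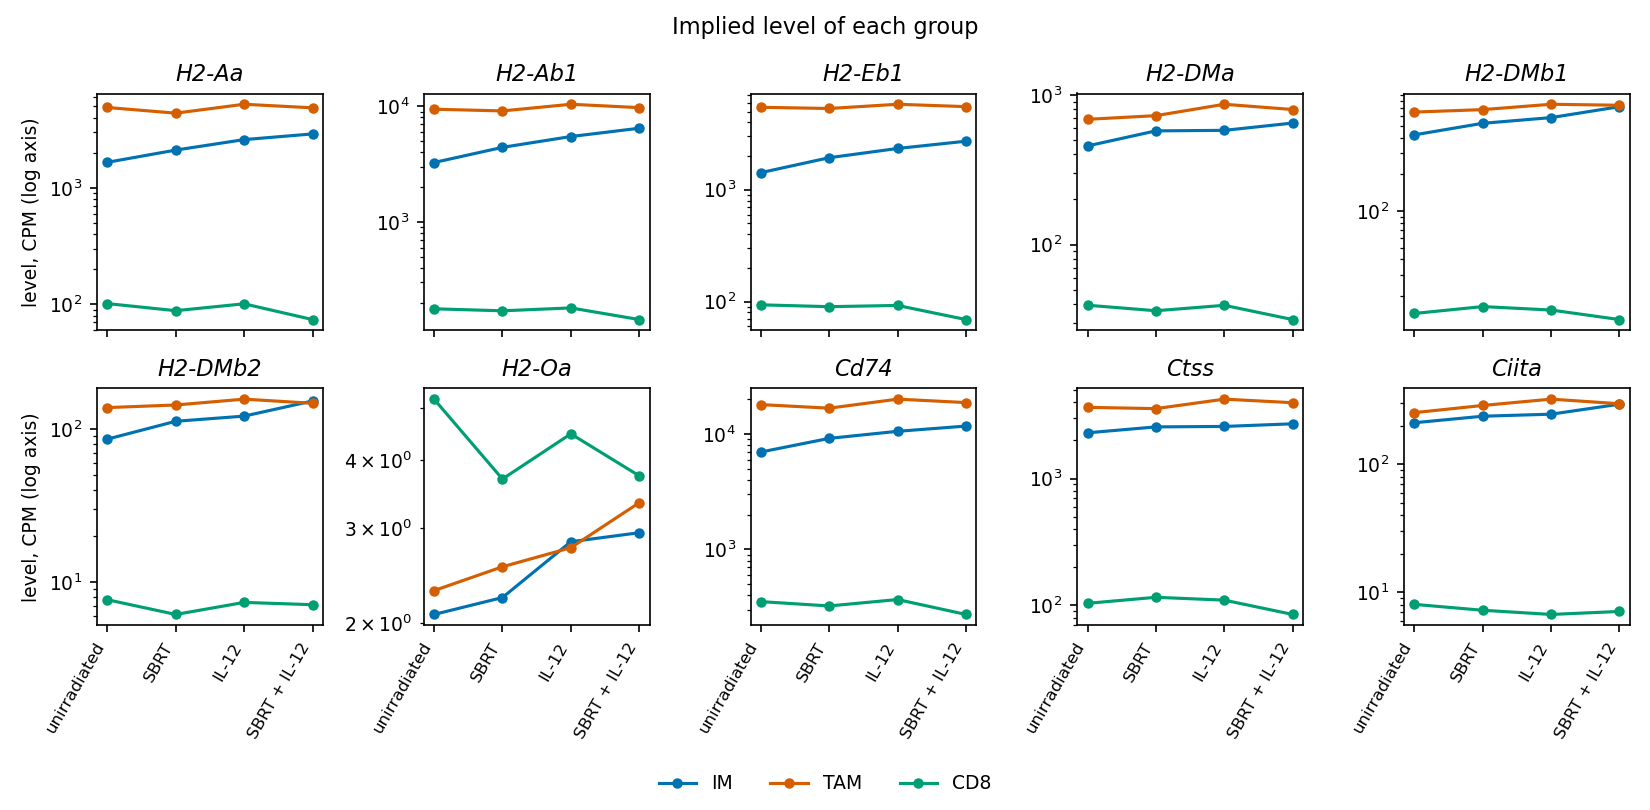
Level in CPM (y axis, log scale, different for each gene) in the 4 groups (x axis) of IM, TAM and CD8, computed from the deposited population mean and fold changes; lines only join the points, and no error is drawn because no library values are given. The IM line of H2-Ab1 climbs from 3262 to 6454 while its TAM line stays between 9109 and 10399, and the CD8 lines lie far below both except for H2-Oa.

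In tumour-associated macrophages the same genes had higher population means than in IM and none passed the test. By group, H2-DMb2 after the combination and H2-Oa after IL-12 were the exceptions, at 0.97 times the IM level each. Of the 10 genes, 0 passed in TAM after SBRT (0 with an unadjusted p below 0.05), 0 after IL-12 (2 unadjusted) and 0 after the combination (1 unadjusted) in the authors' DESeq2 tables. Over all genes tested, 2.08%, 0.935% and 4.21% passed in these comparisons. The median of the 10 genes was 0.01 after SBRT, 0.20 after IL-12 and 0.11 after the combination, against 0.00, -0.01 and 0.00 over all genes.

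H2-Ab1 in TAM stood at 9422 CPM in the unirradiated group, 9109 after SBRT, 10399 after IL-12 and 9728 after the combination. Its log2 fold change after the combination was 0.05 ± 0.15 (adjusted p = 0.97), and those of H2-Eb1 and H2-Aa were 0.02 and -0.01. Cd74 stood at 18049, 16804, 20129 and 18797 CPM, with a value of 0.06 ± 0.16 after the combination (adjusted p = 0.96). The values nearest to the threshold were those of H2-DMa after IL-12 (0.33 ± 0.13, adjusted p = 0.36) and of H2-Oa after the combination (0.54 ± 0.27, adjusted p = 0.33). Ciita had its highest TAM value after IL-12 (0.35 ± 0.18, adjusted p = 0.73). With 2 libraries in 3 of its groups, TAM had standard errors from 0.13 to 0.27 for these genes, and IM from 0.11 to 0.22.

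**Figure D3:**
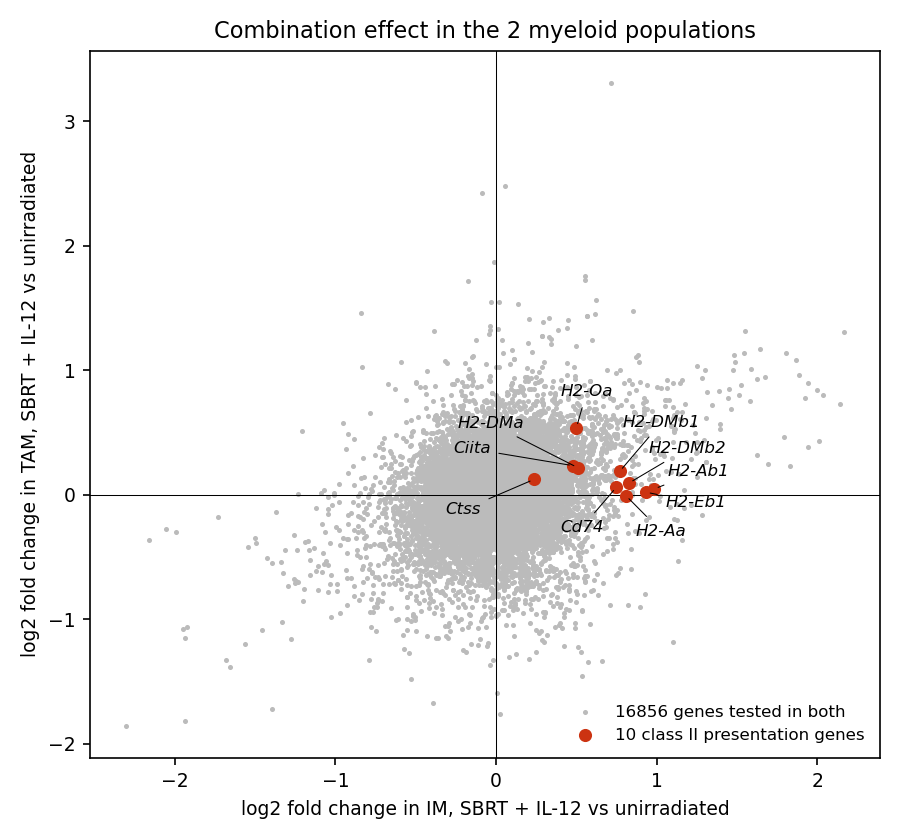
Log2 fold change after the combination in IM (x axis) and TAM (y axis) for 16856 genes tested in both, grey, with the 10 class II presentation genes in red. The chain genes and Cd74 lie near 0 on the TAM axis and between 0.75 and 0.98 on the IM axis.

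The response to the combination was larger in IM than in TAM for 4 of the 10 genes. The effects were compared as a difference on the log2 scale, each relative to the unirradiated group of its own, separately normalised population. Each effect was the Wald statistic times the median standard error of its population's comparisons, so it can depart slightly from the deposited log2 fold change. H2-Ab1 differed by 0.94 ± 0.21 (adjusted p = 0.0033), H2-Eb1 by 0.91 ± 0.22 (adjusted p = 0.0079), H2-Aa by 0.82 ± 0.22 (adjusted p = 0.025) and H2-DMb2 by 0.73 ± 0.20 (adjusted p = 0.037), by a normal test with Benjamini-Hochberg adjustment over 30093 genes. Of all genes, 0.572% were higher in this test. Shares given for tests of differences cover every gene with a p, also at low level, unlike the filtered shares of the deposited tests. With a level of at least 50 required, 294 genes were called in either direction here, against 276 without it. The share among genes at such levels is therefore larger. Cd74 (0.69, 95% interval 0.23 to 1.14, adjusted p = 0.17) and H2-DMb1 (0.58, 0.22 to 0.95, adjusted p = 0.13) did not pass, and both passed with an empirical null. For H2-Oa, Ctss, Ciita and H2-DMa the interval held 0. The median difference of the 10 genes was 0.64, and that of all genes was -0.01.

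After a single treatment 0 of the 10 genes differed between IM and TAM. For SBRT 4 had an unadjusted p below 0.05 where 0.263% of all genes differed, and for IL-12 3 did where 0.0598% differed. The IL-12 difference of H2-Eb1 was 0.62 (95% interval 0.19 to 1.05, adjusted p = 0.75) and that of H2-Ab1 was 0.59 (0.18 to 1.01, adjusted p = 0.77). An empirical null called these 2 genes for IL-12.

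For 9 of the 10 genes the levels of IM and TAM stood closer after the combination than in unirradiated tumours. Populations were normalised separately, and these ratios are set side by side without a test. The ratios come from the same fold changes as the differences above and are not a separate observation. The 9 include Ctss, Ciita and H2-DMa, for which the interval of the difference held 0. In unirradiated tumours the TAM level of H2-Eb1 was 3.84 times the IM level, that of H2-Aa 2.95 times, that of H2-Ab1 2.89 times and that of Cd74 2.58 times. After the combination the ratios were 2.04, 1.67, 1.51 and 1.60. H2-DMb2 went from 1.61 to 0.97 and H2-DMb1 from 1.54 to 1.03. Ctss went from 1.59 to 1.47, and H2-Oa, the exception, from 1.11 to 1.14.

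**Figure D4:**
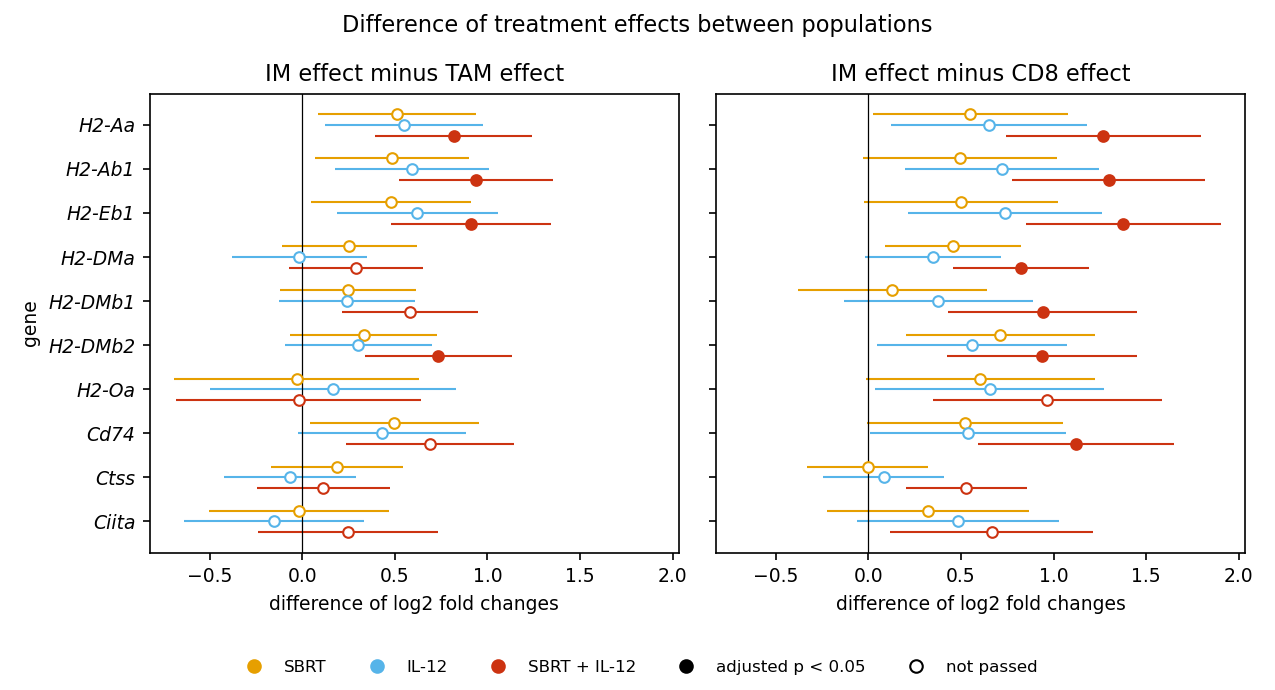
Difference of log2 effects (x axis), IM effect minus TAM effect and IM effect minus CD8 effect, for the 10 genes (y axis) and 3 treatments. Each effect is the Wald statistic times the median standard error of its population, close to the deposited log2 fold change. Bars are 95% confidence intervals and filled points had an adjusted p below 0.05. Only combination points are filled, 4 against TAM and 7 against CD8.

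In the CD8 gate the set was present at low level and had no called change. Of the 10 genes, 0 passed after SBRT (1 with an unadjusted p below 0.05), 0 after IL-12 (0 unadjusted) and 0 after the combination (5 unadjusted) in the DESeq2 tables, where 0.471%, 2.52% and 7.47% of all genes passed. After the combination all 10 values were below 0, with a median of -0.31 against -0.03 over all genes tested. The median was -0.12 after SBRT and 0.00 after IL-12, against 0.00 and -0.01 over all genes.

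H2-Ab1 stood at 178 CPM in the unirradiated CD8 group, 171 after SBRT, 181 after IL-12 and 143 after the combination. Its value after the combination was -0.31 ± 0.22 (adjusted p = 0.46). Those of H2-Aa (-0.46 ± 0.22) and H2-Eb1 (-0.44 ± 0.21) both had an adjusted p of 0.21. Ctss had the smallest adjusted p (-0.29 ± 0.12, adjusted p = 0.15), and Cd74 was at -0.37 ± 0.21 (adjusted p = 0.33). The combination minus SBRT difference of Ctss in CD8 was -0.45 (95% interval -0.80 to -0.10). That difference passed with the variance of the shared controls removed, not in the test as designed (adjusted p = 0.999).

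Over the within-population contrasts of TAM and CD8, 0 of the 10 genes passed. In TAM, 0.00309% of all genes differed for the combination minus SBRT, 0.0741% for the combination minus IL-12 and 0.0124% for the interaction, and 0 of the 10 had an unadjusted p below 0.05 in any of them. In CD8 the shares were 0.0755%, 0.00302% and 0.00302%, with 1 of the 10 unadjusted in each.

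The response to the combination was larger in IM than in CD8 for 7 of the 10 genes, where 1.05% of 30055 genes were higher. The largest difference was that of H2-Eb1, 1.38 ± 0.27 (adjusted p = 9.6e-05). H2-Ab1 differed by 1.30 ± 0.27, H2-Aa by 1.27 ± 0.27, Cd74 by 1.12 ± 0.27, H2-DMb1 by 0.94 ± 0.26, H2-DMb2 by 0.94 ± 0.26 and H2-DMa by 0.83 ± 0.19. H2-Oa (0.97 ± 0.32, adjusted p = 0.087), Ctss (0.53 ± 0.17, adjusted p = 0.070) and Ciita (0.66 ± 0.28, adjusted p = 0.30) did not pass, although their 95% intervals lay above 0. For SBRT 0 of 10 differed (3 unadjusted; 0.02% of all genes), and for IL-12 0 differed (6 unadjusted; 0.466% of all genes).

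The labels of the gates were checked against their markers. The summed level of 11 macrophage markers was 7924 CPM in IM, 29440 in TAM and 249 in CD8, that of 10 monocyte markers 6510, 1397 and 900.1, and that of 12 T cell markers 49.0, 44.5 and 7365. The class II presentation genes stood far lower in the CD8 gate than in both myeloid gates, apart from H2-Oa. The 10 genes took 2.30% of the summed normalised level of IM, 4.46% of that of TAM and 0.0847% of that of CD8. By population mean, Cd74 ranked 6 among all genes of IM, 2 in TAM and 438 in CD8, and H2-Ab1 ranked 14, 6 and 1098. Per kilobase of transcript, Cd74 stood highest of the set in IM (6829 CPM per kb), followed by H2-Ab1 (4043), H2-Aa (2051), Ctss (1871) and H2-Eb1 (1259). H2-DMb1 (401), H2-DMa (281), H2-DMb2 (79.9), Ciita (41.2) and H2-Oa (2.32) followed. In TAM the order was the same, except that H2-Eb1 (3332) stood above Ctss (2876). Without library values it could not be tested which neighbours in these orders differ.

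The mean CD8 level of 9 genes was 1.55% (H2-Eb1) to 4.79% (H2-DMb2) of the TAM level, and Cd74 was at 1.76%. H2-Oa went the other way, at 4.27 CPM in CD8 and 2.74 in TAM, or 156% of the TAM level. Macrophage markers gave values beside which these can be read. The 11 markers stood in CD8 at 0.69% (Mrc1) to 3.02% (Cd68) of their TAM level, among them Apoe at 0.76% and the complement gene C1qb at 0.83%. The defining T cell markers stood where the sort should put them, from 12921% to 20754% of the TAM level, and Cd8a was at 964 CPM.

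After the combination the 11 macrophage markers of CD8 had a median of -0.47, with 0 called, and all 11 were below 0. Their summed level was 268 CPM in unirradiated CD8, 311 after SBRT, 234 after IL-12 and 185 after the combination, and that of the 3 class II chain genes was 373, 349, 374 and 286. The 13 dendritic cell markers ranged from 0.45 (Snx22) to 92.7 CPM (Ccr7) in the CD8 gate. Ccr7 was at 5.20 CPM in TAM, and which cells of the CD8 gate carry it was not tested. Itgax was at 32.1, Siglech at 28.3, Xcr1 at 19.3 and Flt3 at 8.87 CPM in CD8, but Clec9a was at 1.98, Batf3 at 1.89 and Cd209a at 1.17. The part of macrophages or dendritic cells in the class II values of CD8 was not tested.

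**Figure D5:**
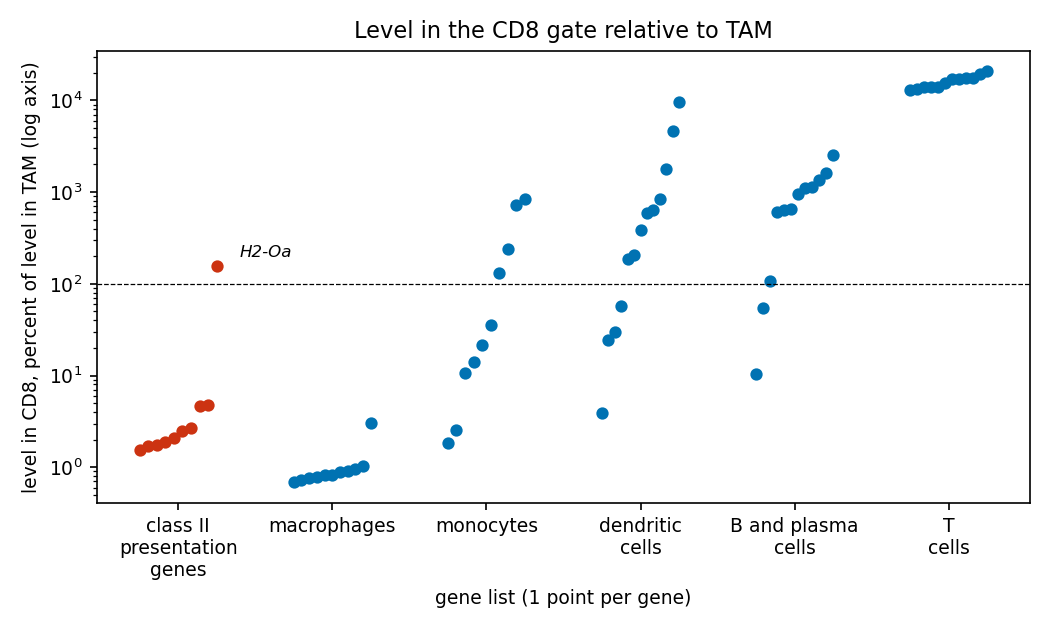
Mean level in CD8 as a percent of the level in TAM (y axis, log scale) for each gene of the class II presentation set, red, and of marker lists for 5 cell types, blue; each point is 1 gene and the dashed line marks equal level. Of the class II presentation genes 9 lie between 1.55% and 4.79%, just above most macrophage markers, while H2-Oa lies at 156%.

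Markers of other class II-bearing cells were read beside the IM result. The summed level of 13 dendritic cell markers in IM was 107 CPM in the unirradiated group, 105 after SBRT, 98.9 after IL-12 and 105 after the combination. After the combination 2 of the 13 rose (Clec9a 0.73, Batf3 0.58) and 2 fell (Flt3 -1.46, Cd209a -2.31), where 6.72% of all genes changed. After IL-12 3 of the 13 fell, where 3.24% of all genes changed. The summed level of 12 B and plasma cell markers lay between 11.4 and 13.5 CPM in the 4 groups, with Pax5 and Blk each at 0.06, and Cd22 rose after the combination (0.71). Cd22 (4.30 CPM) and Cd79b (4.10) were the highest of these in IM. Both stood higher in TAM (34.1 and 12.3), so this sum is not a measure of B cell content. None of the dendritic or B cell markers was at 0.

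Macrophage and monocyte markers moved within IM as well. The summed level of the 11 macrophage markers was 7843, 8155, 7821 and 7878 CPM in the unirradiated, SBRT, IL-12 and combination groups. After the combination C1qa (0.60), C1qb (0.71) and C1qc (0.74), which encode complement C1q, rose, while Mrc1 (-0.99) and Trem2 (-0.48) fell. Of 10 monocyte markers 7 fell and 2 rose, where 6.72% of all genes changed in either direction, and their summed level went from 7246 to 5589 CPM. Ly6c2, which encodes a form of the sort marker Ly6C, rose by 1.10, and Ccr2, a monocyte chemokine receptor gene, fell by 0.58. The 13 mitochondrially encoded genes had a median of -0.32. The part of these shifts in the class II increase was not tested.

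Other genes of the pathway were read from lists chosen with earlier results of these data known. Of 10 endosomal protease and reductase genes in IM, 1 rose after IL-12 (3.24% of all genes called) and after the combination (6.72%). The 1 that rose was Ctsc (0.42 and 0.52), which encodes cathepsin C, and 0 changed after SBRT (0.519% of all genes). In TAM 1 of the 10 rose and 1 fell after the combination (4.21% of all genes called). There 0 changed after SBRT (2.08%) or IL-12 (0.935%). In CD8 0 changed after SBRT (0.471% of all genes called), IL-12 (2.52%) or the combination (7.47%). Ifi30, the gene of the lysosomal thiol reductase, was at -0.05 after the combination (adjusted p = 0.92). Of 7 genes for factors that bind class II promoters, including Rfx5 and the NF-Y subunit genes, 0 were called in any of the 9 comparisons. Over all genes tested, 0.471% to 7.47% were called, so a count of 0 among 7 says little about these factors. The second H2-O chain gene, H2-Ob, was at 0.49 ± 0.23 in IM after the combination (adjusted p = 0.22), 0.25 in TAM and -0.63 in CD8, where it fell (adjusted p = 0.04998).

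Of 12 genes for regulators of Ciita and interferon gamma signalling, 1 rose in IM after SBRT, and 1 rose and 1 fell after IL-12 and after the combination. Over all genes tested in IM, 0.519%, 3.24% and 6.72% were called after SBRT, IL-12 and the combination. In TAM 1 of the 12 rose after SBRT (2.08% of all genes called), 1 after IL-12 (0.935%) and 3 after the combination (4.21%). In CD8 0 were called after SBRT (0.471% of all genes), 1 fell after IL-12 (2.52%), and 2 rose and 1 fell after the combination (7.47%). In IM, Socs1, a feedback inhibitor of the interferon gamma receptor, rose by 0.63 after SBRT, 0.53 after IL-12 and 1.10 after the combination. The receptor gene Ifngr1 fell in IM after IL-12 (-0.69) and the combination (-0.71). In TAM, where no class II presentation gene passed, Socs1 rose too (0.63, 0.63 and 0.89 in the same order). After the combination Ifng (1.22) and Irf8 (0.53) rose in TAM, as did the intramembrane protease gene Sppl2a (0.53), and Ctsd, the gene of cathepsin D, fell (-0.55). The mean level of Ifng was only 2.82 CPM in TAM, against 234 CPM in CD8. The part of T cells in the TAM value of Ifng was not tested. In CD8 after the combination Ifng (0.80) and Prdm1 (0.50), which encodes a repressor of Ciita, rose, and Ifngr2 fell (-0.81 after IL-12 and -1.18 after the combination).

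Of 6 genes for class II turnover and costimulation, 0 were called in IM in any comparison, where 0.519%, 3.24% and 6.72% of all genes were. Cd80 rose after SBRT in TAM (0.89) and in CD8 (0.92), Cd86 rose after the combination in TAM (0.58), and Cd83 fell after the combination in CD8 (-0.63). Of the class II receptor genes, Cd4 fell in TAM after SBRT (-0.96), and Lag3 was not called in any comparison.

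The profile of the chain genes over the 9 comparisons was compared with those of 12153 genes that had a level of at least 50 in all 3 populations. Likeness was measured as Euclidean distance between the 9 deposited log2 fold changes and the mean of H2-Aa, H2-Ab1 and H2-Eb1. Cd74 ranked 4 at a distance of 0.22, directly after the 3 chain genes, and H2-DMb2 ranked 8 at 0.46. H2-DMb1 ranked 19, H2-DMa 38, Ciita 285, H2-Oa 438 and Ctss 534. The 5 nearest genes outside the set were Bod1 (0.41), Slamf9 (0.44), Aldoc (0.46), Tm2d3 (0.47) and C1qc (0.48), where the median distance over all genes was 1.43. Bod1, for example, had log2 fold changes of 0.54, 0.60 and 0.72 in IM after SBRT, IL-12 and the combination, and -0.05, -0.03 and -0.05 in TAM. The 9 values share their control libraries within each population.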

How the data were processed

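RNA from 33 libraries in 12 groups was sequenced from total RNA with a TruSeq RNA V2 kit, per the labels' protocols. The submitters' processing notes name build GRCm38 and, with no role or order, STAR 2.6.0c, featureCounts, Subread, Salmon, FastQC 0.11.8 and Trimmomatic 0.36. The 9 deposited tables hold DESeq2 results per the file headers, with version and design formula not given in the sources used here. The authors' mean level is a normalised signal, counts divided by size factors, identical in the 3 tables of a population. The deposited log2 fold changes were shrunken. The authors' Wald statistic is a score, its 2-sided normal probability equals the deposited p-value, and the authors' adjusted p-value covers 13876 to 19273 genes. Depth per library is unknown, so no counting interval is given.

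Levels were scaled to a sum of 1000000 per population and called CPM. Group levels were derived from the population mean, the fold changes and the group sizes. Differences of effects were computed as statistics times the median standard error of a population's tables, tested against the normal distribution and adjusted by Benjamini-Hochberg over the genes with a p (Python 3.11.15, scipy 1.17.1), tested on simulated data. Within a population the shared control variance was left in, which makes that test conservative. Alternatives were adjustment without the filter, a level of at least 50, an empirical null, each table's own standard error and removal of the control variance. The genes, lists and tests were chosen with earlier results of these data known. Named beside the 10 genes were up to 4 called genes per pathway list with the smallest adjusted p, genes of marker lists and the 5 nearest profiles. Other genes named were chosen after their values were seen. Promoters are from RefSeq and gene models from GENCODE. Some genes of the lists are not reported here.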

Additional observations from a re-analysis of the deposited data

Results flagged for a closer look

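The log2 effect of the combination differed between populations, by a test of the difference itself, in 11 comparisons of the class II presentation genes. Against TAM, the IM effect was larger for H2-Ab1 by 0.94, for H2-Eb1 by 0.91, for H2-Aa by 0.82 and for H2-DMb2 by 0.73. Against CD8, it was larger for H2-Eb1 by 1.38, for H2-Ab1 by 1.30, for H2-Aa by 1.27, for Cd74 by 1.12, for H2-DMb1 by 0.94, for H2-DMb2 by 0.94 and for H2-DMa by 0.83. No group could be searched for single libraries that stand apart, since the tables hold no library values.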

How the results depend on the processing

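Of 81 recomputed counts of called class II presentation genes, 73 were within 1.5 times the value reported or were 0 where 0 was reported. Most of the 73 were 0 in both, so this share says little about how stable the calls are. With an empirical null, 2 genes differed between IM and TAM after IL-12, 5 for the IM combination minus SBRT, 2 for the IM combination minus IL-12, and 1 each for the CD8 combination minus SBRT, combination minus IL-12 and interaction, each 0 in the test as designed. With the control variance removed, 3 genes differed for the IM combination minus SBRT and 1 for the CD8 combination minus SBRT. In CD8 that gene was Ctss, lower. The counts behind the main results moved less: 6 after IL-12 in IM under each alternative, 7 to 8 after the combination, 4 to 6 for IM minus TAM and 7 to 9 for IM minus CD8. With each table's own standard error the effects are the deposited fold changes themselves. The sign of H2-DMa in the IL-12 effect, IM minus TAM (0.0116), and of Cd74 in the TAM interaction (0.0043) then turned, both near 0. The call of Ciita in IM after the combination was lost under 2 alternatives. The cause was not tested. No paired analysis was possible because the tables hold no library values, and for the same reason no library could be left out in turn. Depth per library is unknown, and the levels of H2-Oa, under 6 CPM in every group, limit what could be called for it.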
